A study of Homo sapiens with 24 samples.

Results

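The 60 genes described here are zinc finger (ZNF) genes of the long arm of human chromosome 19, 24 in the 19q13.12 cluster, 1 in 19q13.31 and 35 in 19q13.4, among 34496 genes found in any of the 6 deposited expression tables. They were chosen on measured values: ZNF83, ZNF570, ZNF229, ZNF415 and ZNF875 had shown little or no RNA in U87 MG cells and clear expression in the derivative U87-R, and the other listed genes of the same clusters were taken with them. The difference between U87-R and U87 MG in DMSO is therefore a description of what chose the set and carries no test. In GENCODE 29 on GRCh38 the 19q13.12 members lie at chr19:36445119-37817300, ZNF229 at chr19:44417519-44448578 and the 19q13.4 members at chr19:51804816-53580269.

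Most zinc finger genes of these clusters encode proteins with an array of C2H2 zinc fingers that binds DNA, often with a KRAB domain in front of it. The KRAB domain binds TRIM28, which brings the histone methyltransferase SETDB1 and HP1 proteins (CBX1, CBX3 and CBX5) and so silences the bound sequence, in many cases a transposable element. The clusters arose by repeated duplication, neighbours can be very alike, and the genes themselves are known to be packed in chromatin with the silencing mark H3K9me3 in many cell types.

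Messenger RNA with a poly(A) tail had been sequenced from cultured human glioblastoma cells, in 8 groups of 3 libraries, 24 in all. U87 MG and LN229 are the parental lines. U87-R and LN229-R are their counterparts resistant to temozolomide, an alkylating drug, and the medium of both resistant lines held 50 µM temozolomide, so resistance and the presence of the drug cannot be told apart. Each of the 4 lines was given 50 µM STM2457, an inhibitor of the RNA methyltransferase METTL3 that writes m6A, for 96 h, or the solvent DMSO. The U87 family grew in EMEM with 10% serum and was prepared with a stranded TruSeq kit, the LN229 family in DMEM with 5% serum and pyruvate with a Watchmaker kit, and the sources used here do not say that replicates were separate cultures or that a resistant line was more than 1 clone.

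Values are the authors' normalized counts, which summed to 21232924 to 28716587 per library. The read depth behind each value is unknown, and the 6 tables were normalized separately, so all comparisons are within a table unless said otherwise. The glioma markers VIM, CD44 and NES were present in every DMSO group, with VIM at 114480 ± 14446 (SD, n = 3) in U87 MG and 71242 ± 10029 (SD, n = 3) in the libraries labelled LN229. The astrocyte marker GFAP was low, at 16.1 ± 19.7 (SD, n = 3) in U87 MG, and AQP4 was not listed. SOX2 was not listed in the U87 table and was at 1208 ± 245 (SD, n = 3) in libraries labelled LN229. Markers of other cells were followed in the U87 DMSO libraries as whole lists. Of 4 fibroblast markers 1 (COL1A2) was higher in every U87-R than in every U87 MG library, and their sum was 26800 to 52700 in U87 MG and 50200 to 78500 in U87-R. Of 3 listed epithelial markers 2 (KRT8 and KRT18) were higher, with sums of 237 to 315 and 469 to 692. Of 3 endothelial markers 2 (PECAM1 and CDH5) were higher, with sums of 14.8 to 30.2 and 27 to 38.2 and CDH5 at 0 in U87 MG. Of 2 listed immune markers 0 moved without overlap, with sums of 10800 to 13500 and 9450 to 11000 that were nearly all CD68, and PTPRC at 0 to 5.05. Of 7 listed glioma and astrocyte markers 2 (S100B and NES) were higher, and 0 markers of these lists were lower. By the same rule 2099 of the 19164 genes listed for DMSO in both families were higher in every U87-R library. Some of these markers were near the bottom of the scale. S100B was at 1.08 to 2.76 in U87 MG and 2.82 to 8.83 in U87-R, and KRT18 at 2.49 to 6.70 and 7.67 to 27.4. The part of the markers in the results was not tested. The names of the LN229 family conflicted between tables. All 6 LN229 and LN229-R DMSO libraries of the table of resistant against parental cells matched the other line's name in the STM2457 tables, with a spread (SD of the log2 ratio over genes) of 0.0568 to 0.0615 against 0.3 to 0.363 for the library of the same name. The 6 U87 libraries matched by name. Results of the LN229 family are therefore given for libraries as labelled in the table in use. The STM2457 libraries were not shared between tables, so their names could not be checked in this way. If only the DMSO names were exchanged in the STM2457 tables, each STM2457 effect in this family would mix treatment with line.

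Of the 60 members, 50 were listed in all 6 tables and 1, ZNF781, in none. The promoters of the 5 genes that led to the set are printed here with that of ZNF841, a 19q13.4 member expressed in both U87 lines, so that the starts of genes low in U87 MG can be set beside one that was not. Each runs 5′ to 3′ on the gene's strand from 250 bases before to 50 bases after the RefSeq start (GRCh38.p14), and capitals mark CpG dinucleotides (the motif CG, which reads the same on both strands). The windows are ZNF83 chr19:52690447-52690746 (minus strand), ZNF570 chr19:37467522-37467821 (plus), ZNF229 chr19:44448423-44448722 (minus), ZNF415 chr19:53132861-53133160 (minus), ZNF875 chr19:37312587-37312886 (plus) and ZNF841 chr19:52095716-52096015 (minus).
ZNF83: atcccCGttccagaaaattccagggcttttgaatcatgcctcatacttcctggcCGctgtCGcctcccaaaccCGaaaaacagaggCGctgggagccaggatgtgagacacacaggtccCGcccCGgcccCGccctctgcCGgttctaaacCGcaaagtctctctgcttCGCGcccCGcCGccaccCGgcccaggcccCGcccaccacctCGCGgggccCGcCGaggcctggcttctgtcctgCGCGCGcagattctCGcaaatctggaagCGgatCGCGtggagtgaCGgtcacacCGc
ZNF570: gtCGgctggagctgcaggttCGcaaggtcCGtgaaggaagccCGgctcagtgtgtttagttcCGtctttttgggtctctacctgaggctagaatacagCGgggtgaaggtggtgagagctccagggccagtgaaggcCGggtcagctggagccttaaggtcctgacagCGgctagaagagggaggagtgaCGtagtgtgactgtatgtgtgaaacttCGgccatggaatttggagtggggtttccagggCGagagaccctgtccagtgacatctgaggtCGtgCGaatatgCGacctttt
ZNF229: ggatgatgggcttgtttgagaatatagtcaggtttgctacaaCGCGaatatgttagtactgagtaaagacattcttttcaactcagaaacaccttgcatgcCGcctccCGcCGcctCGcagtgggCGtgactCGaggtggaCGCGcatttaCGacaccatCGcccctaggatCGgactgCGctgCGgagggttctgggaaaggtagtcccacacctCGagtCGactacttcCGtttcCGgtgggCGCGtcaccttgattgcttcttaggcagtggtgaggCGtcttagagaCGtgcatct
ZNF415: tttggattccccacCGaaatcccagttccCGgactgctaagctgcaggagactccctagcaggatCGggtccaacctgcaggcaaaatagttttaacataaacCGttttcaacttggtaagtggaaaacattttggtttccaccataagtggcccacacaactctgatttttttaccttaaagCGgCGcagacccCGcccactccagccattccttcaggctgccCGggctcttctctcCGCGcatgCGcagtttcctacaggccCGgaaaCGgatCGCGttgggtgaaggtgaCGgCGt
ZNF875: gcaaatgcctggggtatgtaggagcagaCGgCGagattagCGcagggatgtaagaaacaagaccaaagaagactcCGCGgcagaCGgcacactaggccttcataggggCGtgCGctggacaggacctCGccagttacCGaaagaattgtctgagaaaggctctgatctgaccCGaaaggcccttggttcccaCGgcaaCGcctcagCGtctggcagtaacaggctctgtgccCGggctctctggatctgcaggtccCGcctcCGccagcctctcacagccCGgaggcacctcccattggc
ZNF841: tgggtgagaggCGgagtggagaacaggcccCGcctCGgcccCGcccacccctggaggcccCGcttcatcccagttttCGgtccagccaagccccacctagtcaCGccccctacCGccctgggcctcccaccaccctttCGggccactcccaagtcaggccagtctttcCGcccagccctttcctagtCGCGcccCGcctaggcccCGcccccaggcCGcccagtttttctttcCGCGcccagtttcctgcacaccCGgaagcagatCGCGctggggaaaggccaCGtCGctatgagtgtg

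The ZNF83 promoter held 29 CpGs, that of ZNF229 held 23, ZNF841 held 22, ZNF875 held 18, ZNF415 held 17 and ZNF570 held 14. RefSeq promoters were matched for 52 of the 60 members. Their median was 23.5 CpGs (range 14 to 34), against 14 over all 35116 promoters of the same length, in which the motif was present in 96%. The ratio of observed to expected CpGs, which allows for base composition, was at least 0.6 in 51 of the 52 (98.1%) and in 48.9% of all promoters. The 33 matched members counted below as higher in U87-R had a median of 23 CpGs (14 to 30) and the 8 measured members not so counted had 24 (14 to 30), so the count of CpGs in this window was alike in both. The windows of 5 pairs overlapped because the genes start back to back: ZNF382 with ZNF529, ZNF461 with ZNF567, ZNF345 with ZNF790, ZNF568 with ZNF829, and ZNF569 with ZNF570. DNA methylation was not measured in these files.

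**Figure D1:**
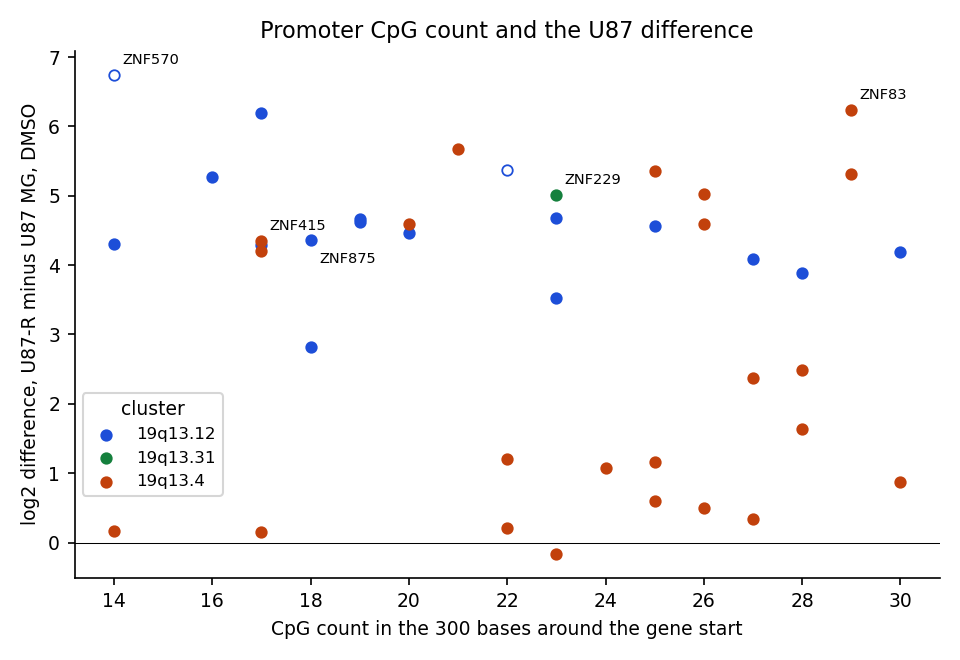
Each point is a member measured in the U87 table with a matched promoter: the x axis is the number of CpGs in the 300 bases around its start, the y axis the log2 difference of U87-R over U87 MG in DMSO, and colours give the cluster. Open points are listed at 0 in every U87 MG library, so their height depends on the pseudocount. Members with small and with large differences both span 14 to 30 CpGs.

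In DMSO the 5 leading genes were near the bottom of the scale in U87 MG and well expressed in U87-R. ZNF570 was listed at 0 in all 3 U87 MG libraries and at 102.2, 105.6 and 111.3 in U87-R. ZNF83 was at 0, 3.65 and 11.99 in U87 MG and at 241, 283 and 380 in U87-R. ZNF229 was at 3.06, 4.32 and 2.89 against 125, 126 and 176. The 3 genes lie in 3 different clusters, and no U87-R library overlapped any U87 MG library for any of them.

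ZNF415, for which effects on AP-1 and p53 reporters have been described, was at 6.43, 8.84 and 6.94 in U87 MG and at 169, 137 and 210 in U87-R. ZNF875 was low rather than off in U87 MG, at 30.7, 35.1 and 30.7, and stood at 596, 654 and 811 in U87-R. Differences on the scale of log2(value + 1) were 6.24 (SE 0.79) for ZNF83, 5.02 (SE 0.35) for ZNF229, 4.37 (SE 0.19) for ZNF875 and 4.35 (SE 0.31) for ZNF415. ZNF570 has no fold, since its U87 MG values were all 0.

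**Figure D2:**
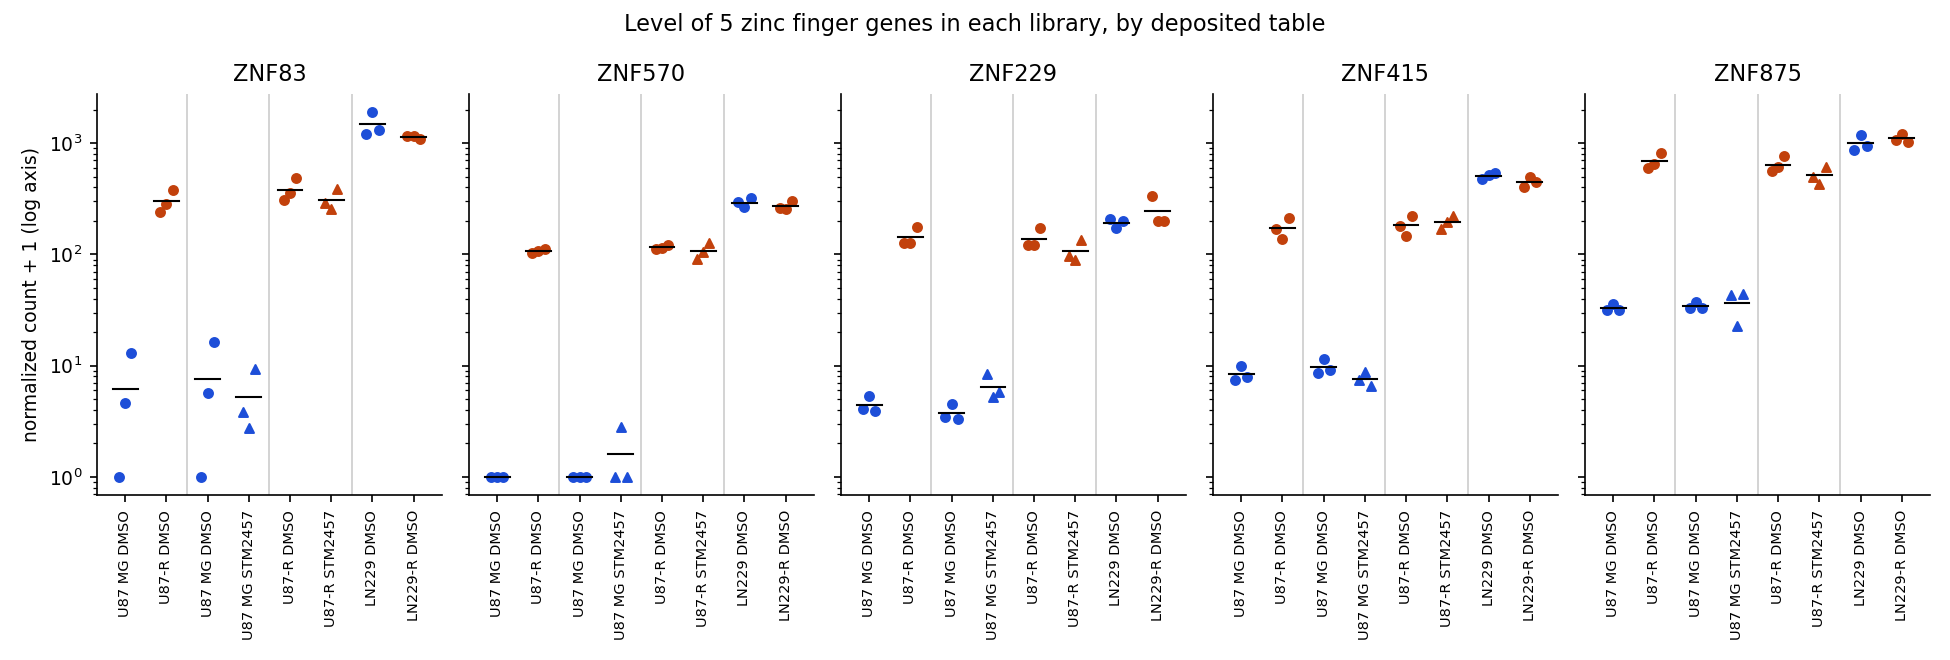
Normalized count plus 1 (log axis) of the 5 leading genes in every DMSO library and every STM2457 library of the U87 family, and in the DMSO libraries of the LN229 family as labelled. Each point is 1 library, bars are group means, triangles are STM2457, and grey lines separate tables that were normalized apart. Parental U87 MG points lie far below U87-R in all panels, while both LN229 lines lie high.

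Among the 47 members with a mean of at least 10 over the 6 libraries, 38 had every U87-R library above every U87 MG library with a log2 difference of at least 1, and 0 were lower by that rule. Over all 16306 genes of the table, 3.48% were higher and 2.02% lower by the same rule, figures given as background only, since this contrast chose the set. The members' median log2 difference was 4.29, against -0.01 for all genes, and it includes 3 counted genes listed at 0 in all U87 MG libraries, whose values depend on the pseudocount (the median was 2.79 with a pseudocount of 5). Of the 38, 25 were under 10 in all 3 U87 MG libraries, so they passed the mean of 10 through U87-R only. Members low in both lines were left out. Counts among measured members, here and by cluster below, are therefore partly set by the filter and are description only. Of the 13 members not measured here, 6 were not listed and 7 were listed under the mean of 10, and 4 of those 7 (ZNF382, ZNF567, ZNF540 and ZNF347) also had all U87-R values above all U87 MG values. By lack of overlap alone, 2099 of the 19164 genes listed for DMSO in both families were higher in every U87-R library. That figure is background only, and the values of these 4 members were low. The summed level of all listed members was 2261 to 2497 in U87 MG and 6398 to 8441 in U87-R. In bulk RNA, fewer expressing cells and less RNA per cell cannot be told apart.

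In 19q13.12 all 18 measured members were higher, by 2.83 to 6.19 on the log2 scale leaving aside those at 0. The cluster had 23 listed members, and ZNF829 and ZNF568, listed below the mean of 10, overlapped between the lines. ZNF569, known as a repressor of MAPK signalling in reporter assays, was at 2.27, 0 and 0 in U87 MG and at 91.4, 123 and 110.4 in U87-R. ZNF569 and ZNF570 start back to back and their annotated spans overlap, so without stated strand settings part of the reads of either could have been assigned to the other. ZNF571 was listed at 0 in U87 MG and at 41.7, 45.0 and 52.2 in U87-R. ZNF461, first described as a gonadotropin-inducible repressor, was listed at 0 against 33.4, 20.1 and 96.9.

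The smallest differences in this cluster were those of ZNF573 and ZNF850. ZNF573, nearest the end of the cluster, was at 8.67, 10.7 and 10.1 in U87 MG and at 48.2, 100.4 and 88.7 in U87-R, a log2 difference of 2.83 (SE 0.38). ZNF850 was at 1.07, 0 and 7.41 against 14.3, 31.5 and 53.2, a difference of 3.53 (SE 0.86). Among the others, ZNF420, which encodes APAK, a KRAB protein that restrains p53, was at 0.885, 0 and 0 against 23.1, 18.99 and 23.0. None of these genes overlapped between the lines.

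The near-copies ZNF585A and ZNF585B moved alike. ZNF585A was at 9.60, 0.534 and 7.48 in U87 MG and at 68.4, 93.9 and 155 in U87-R. ZNF585B was at 6.59, 1.10 and 2.13 against 64.8, 121 and 91.4. They share 13.9% (of ZNF585A) and 19.8% (of ZNF585B) of their 31-base transcript words, so the split of reads between them is uncertain. ZNF529 was at 2.28, 5.69 and 12.2 against 86.7, 64.3 and 164, and ZNF793 at 2.61, 1.12 and 0 against 72.9, 43.9 and 132. The other 6 measured members of 19q13.12 (ZNF566, ZNF790, ZNF345, ZNF383, ZNF527 and ZNF607) differed by 4.09 to 4.68.

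In 19q13.4 the picture changed along the chromosome, with 19 of 28 measured members counted as higher. The stretch from ZNF577 to ZNF480, at chr19:51804816-52325922, held 11 measured members, of which 3 were counted, with a median log2 difference of 0.50. The stretch from ZNF610 to ZNF331, at chr19:52336245-53580269, held 17, of which 16 were counted, with a median of 4.59. This division was drawn after the values were seen and has no test.

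The genes of the first stretch were expressed in both lines. ZNF841 was at 422, 385 and 501 in U87 MG and at 522, 471 and 514 in U87-R, and the groups overlapped. ZNF614 was at 281, 257 and 219 against 234, 227 and 212, and it was the single measured member with a lower mean in U87-R. ZNF432, described as a sensor of poly(ADP-ribose) in DNA repair, was at 281, 291 and 252 against 325, 411 and 315, a difference of 0.34 (SE 0.16) without overlap. ZNF350, a corepressor partner of BRCA1 also called ZBRK1, was at 32.1, 35.6 and 52.7 against 58.7, 35.8 and 39.1, with overlap. ZNF836 and ZNF766 also overlapped, and differed by 0.17 and 0.50.

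The genes around the size limit of 1 came from both stretches. Just inside were ZNF616 with 1.07, ZNF765 with 1.15 and ZNF615 with 1.20. ZNF616 was at 151, 142 and 126 in U87 MG and at 270, 319 and 295 in U87-R. Just outside were ZNF160, a KRAB repressor of TLR4 transcription, with 0.87, ZNF577 with 0.60 and ZNF649, a repressor of SRE and AP-1 reporters, with 0.59. ZNF160 was at 258, 321 and 225 against 441, 413 and 628 and did not overlap, whereas ZNF577 did. ZNF480, the third counted member of the first stretch, was at 129, 101 and 56.5 against 169, 269 and 279.

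In the second stretch the median difference was close to that of 19q13.12 (4.59 and 4.51), but the stretch was more mixed. Its smallest difference was 0.87, against 2.83 in 19q13.12. ZNF600 was at 0, 0 and 0.559 in U87 MG and at 80.9, 68.5 and 70.3 in U87-R. ZNF578 was at 0.957, 1.89 and 0.826 against 84.1, 58.9 and 266. ZNF808, whose loss is known to prevent normal development of the human pancreas and whose protein represses MER11 elements, was at 0.839, 11.9 and 2.92 against 151, 150 and 257. ZNF331, an imprinted gene known to be methylated in several cancers, was at 11.5, 2.21 and 5.46 against 72.3, 119 and 185. None of these 4 overlapped between the lines.

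ZNF28, ZNF701, ZNF816, ZNF611 and ZNF320 differed by 4.59 to 5.35. ZNF816 was at 0, 3.15 and 0 against 64.0, 67.5 and 62.8. The smaller differences of this stretch included those of ZNF528 and ZNF845. ZNF528 was at 84.3, 77.7 and 87.8 against 353, 427 and 540, a difference of 2.37 (SE 0.19). ZNF845 was at 33.5, 18.6 and 25.3 against 102, 141 and 216, a difference of 2.49 (SE 0.35). ZNF665 and ZNF761 differed by 2.79 and 1.64, both at low values, with ZNF761 at 5.42, 10.2 and 1.90 against 22.6, 11.7 and 20.4.

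ZNF468 went the other way, at 11.8, 0.949 and 5.04 in U87 MG and listed at 0 in every U87-R library, below the mean of 10. It shares 54.1% of its 31-base transcript words with ZNF320, which shares 70.6% of its own with ZNF468 and was higher in U87-R (22.3, 32.6 and 49.8 against 1.82, 0 and 0). The 2 annotated spans overlap on the same strand, so reads can be assigned to either and both values are uncertain. Other members of this stretch also share such words, among them ZNF808 (14.51% with ZNF701), ZNF28 (13.05% with ZNF468) and ZNF600 (12.02% with ZNF611). The split of reads among these genes is uncertain too.

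**Figure D3:**
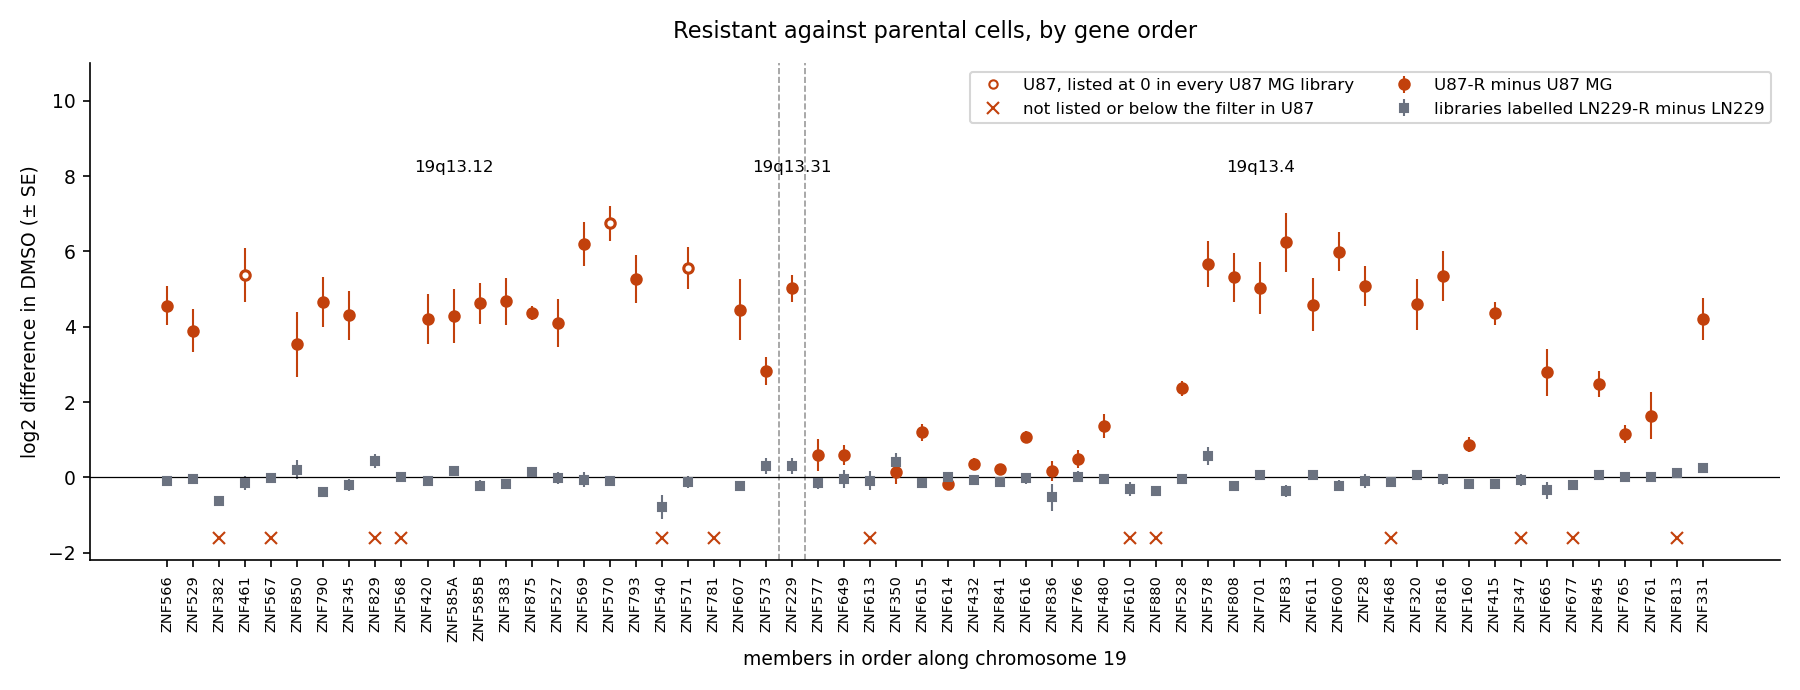
Log2 difference (± SE of the fit) of resistant over parental cells in DMSO for each member in its order along chromosome 19, for the U87 family (orange) and the LN229 family as labelled (grey). Dashed lines separate the clusters, crosses mark members not listed or below the mean of 10 in U87, and open points were listed at 0 in every U87 MG library. The U87 points lie at 2.83 and above in 19q13.12, between -0.16 and 1.36 from ZNF577 to ZNF480, and between 0.87 (ZNF160) and 6.24 (ZNF83) from ZNF528 onward, and the grey points stay between -0.79 and 0.57.

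Other genes inside the cluster spans were set beside the members. Of 58 neighbouring genes, 10 were protein coding, and 5 of those had a ZNF symbol. Of the 58, 13 were measured and 10 were higher in U87-R by the rule above, again against 3.48% of all genes. ZNF888 was at 2.01, 1.04 and 2.64 in U87 MG and at 98.1, 96.5 and 112 in U87-R. ZNF525 was at 0, 2.43 and 1.33 against 113, 71.9 and 73.6. ZNF888 and ZNF525 passed the mean of 10 through U87-R only. Neighbours low in both lines were left out, so the share is background only and adds no support to the members' difference. PPP2R1A, a scaffold subunit of protein phosphatase 2A within the 19q13.4 span and no zinc finger gene, was at 5572, 5723 and 6139 against 5512, 5706 and 6593, a difference of 0.03 (SE 0.10). No other protein coding neighbour without a ZNF symbol was measured. Which of the 2 stretches of 19q13.4 holds PPP2R1A is not given here. It therefore does not show whether such genes moved beside the members that were higher. ZNF genes elsewhere on chromosome 19 were higher in 39 of 153 (25.5%), and ZNF genes of other chromosomes in 14 of 224 (6.25%).

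The same 2 lines were also set side by side with STM2457, in 2 separately normalized tables. Of 44 members with a mean of at least 10 there, 31 had all U87-R STM2457 libraries above all U87 MG STM2457 libraries by at least 1 on the log2 scale, where 2.96% of 16292 genes did. Most members passed that mean through U87-R, and these are the lines whose difference chose the set, so the share is background only and adds no support to the DMSO difference. ZNF570 was at 0, 1.83 and 0 in U87 MG with STM2457 and at 89.2, 105.3 and 125 in U87-R with it. ZNF83 was at 2.86, 1.74 and 8.26 against 289, 256 and 384. No test was run, and the separate normalization can shift levels: for the same DMSO libraries the members' values in the 2 U87 tables had ratios of 0.748 to 1.66, and those of ZNF611 in U87-R were about 1.65 times apart.

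In the LN229 family the clusters were expressed in both lines and did not differ in this way. Of 59 listed members, 58 were at 10 or more in all 6 DMSO libraries and the other, ZNF793, in replicate 2 of both lines, and the summed level was 23745 to 24437 in libraries labelled LN229 and 22701 to 23218 in those labelled LN229-R. Of 58 members tested with limma, 0 rose in libraries labelled LN229-R and 1 fell, against 5.6% and 3.65% of all 17136 genes, and the median log2 change was -0.07. That median was -0.01 with libraries scaled to equal totals, -0.03 without LN229 replicate 1 and -0.10 without LN229 replicate 3. ZNF382, a KRAB gene known to be silenced by methylation in several cancers, was at 284, 258 and 284 in libraries labelled LN229 and at 200.02, 173 and 161 in those labelled LN229-R. It fell by 0.63 (SE 0.14, adjusted p = 0.0282), and it kept its size but not its call without any 1 of 5 libraries (all but LN229 replicate 2). With the names of the STM2457 tables the direction turns, since the same libraries carry the other name there.

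The 5 leading genes did not pass in this comparison. ZNF83 was at 1210, 1915 and 1321 in libraries labelled LN229 and at 1151, 1169 and 1080 in those labelled LN229-R, a change of -0.36 (SE 0.16, adjusted p = 0.223 in limma). ZNF570 was at 292, 263 and 320 against 261, 253 and 299. ZNF229 was at 206, 173 and 197 against 332, 198 and 201, and ZNF415 at 473, 514 and 534 against 403, 493 and 449. ZNF875 was at 866, 1183 and 949 against 1061, 1216 and 1032. Of these 5 only ZNF83 had groups that did not overlap.

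STM2457 left the low genes of U87 MG low. Of the 53 members listed in the U87 MG table, 37 were under the mean of 10 and 16 were tested. ZNF83 was at 0, 4.65 and 15.3 with DMSO and at 2.86, 1.74 and 8.26 with STM2457, and ZNF415 at 7.53, 10.4 and 8.18 against 6.49, 7.84 and 5.58. ZNF229 was at 2.47, 3.49 and 2.34 against 7.45, 4.23 and 4.76, without overlap and all under 10. ZNF875, the one leading gene above the filter, was at 31.8, 36.5 and 32.0 against 42.6, 21.8 and 42.9, a change of 0.03 (SE 0.35, adjusted p = 0.961 in limma). The members' median change was 0.13 over the 16, against -0.01 over all genes.

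ZNF432 was the 1 member that rose in U87 MG, and 0 fell, where 7.86% and 5.72% of all 16407 genes did. It was at 300.01, 311 and 271 with DMSO and at 597, 405 and 465 with STM2457, a rise of 0.72 (SE 0.17, adjusted p = 0.0237 in limma). The call was lost without DMSO replicate 2 or 3 or STM2457 replicate 1 or 3, with adjusted p up to 0.061 over the alternatives.

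In U87-R, 50 members were tested and ZNF350 alone rose with STM2457, with 0 falling, where 8.46% and 6.2% of all 16185 genes did. It was at 57.5, 35.0 and 38.5 with DMSO and at 97.1, 79.1 and 76.3 with STM2457, a rise of 0.96 (SE 0.27, adjusted p = 0.0475 in limma). The call was lost without any 1 library other than DMSO replicate 1. With the replicate number as a block, under which 15.7% of all genes rose and 13.9% fell, 4 members passed: ZNF350 (adjusted p = 0.0194), ZNF611 with 0.75 (adjusted p = 0.0228) and ZNF432 with 0.41 (adjusted p = 0.033) rose, and ZNF573 with -0.75 (adjusted p = 0.0434) fell. The members' median change was 0.06, and 0.22 without DMSO replicate 3.

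None of the 5 leading genes passed in U87-R, with or without the block. ZNF83 was at 305, 355 and 481 with DMSO and at 289, 256 and 384 with STM2457. ZNF570 was at 111.2, 114 and 122 against 89.2, 105.3 and 125, ZNF229 at 121.1, 121.4 and 171 against 96.0, 88.0 and 133, ZNF415 at 179, 144 and 222 against 167, 196 and 221, and ZNF875 at 557, 607 and 760 against 499, 433 and 609. Their changes ran from -0.38 for ZNF229 to 0.11 for ZNF415, and the groups overlapped for all 5. ZNF83, ZNF229 and ZNF875 were lower with STM2457 in each of the 3 like-numbered pairs, and with the replicate block their adjusted p was 0.124, 0.128 and 0.0551 in limma. The same U87-R DMSO libraries had served to choose these 5 genes for their high level. Lower values with STM2457 are therefore not independent of that choice, and the share of all genes with this pattern was not counted.

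With STM2457 more members moved in the LN229 family, where more of all genes did too. In the table labelled LN229, 20 of 58 members rose (34.5%) and 6 fell (10.3%), against 26.2% and 23.6% of all 17107 genes. In that labelled LN229-R, 15 rose (25.9%) and 4 fell (6.9%), against 21.5% and 17.1% of all 17063 genes. The members' median changes were 0.16 and 0.14, against 0.00 and -0.02 over all genes, and the second was 0.07 with equal upper quartiles. By cluster, 6 of 22 rose and 3 fell in 19q13.12 and 14 of 35 rose and 3 fell in 19q13.4 in the first table, and 3 rose and 1 fell in 19q13.12 and 12 rose and 3 fell in 19q13.4 in the second. With the replicate block 21 rose and 4 fell in the second table, where 25.8% of all genes then rose and 23.7% fell. The 2 tables share no library, and with the name conflict described above their effects could mix treatment with line.

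ZNF790 rose by 1.23 (SE 0.14, adjusted p = 0.000284 in limma) in the table labelled LN229, from 134, 131 and 126 with DMSO to 277, 353 and 297 with STM2457. In the table labelled LN229-R it rose by 0.80 (SE 0.17, adjusted p = 0.00797), from 158, 186 and 169 to 261, 340.1 and 299. ZNF480 went from 336, 327 and 408 to 695, 719 and 573 in the first and from 385, 387 and 341 to 705, 764 and 639 in the second, with changes of 0.89 and 0.92. ZNF420, the p53 restraining factor, rose by 0.88 and 0.97, and ZNF845 by 0.84 and 0.88. For each of these 4 genes no STM2457 library overlapped a DMSO library of its table.

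ZNF836 was at 64.0, 115 and 103 with DMSO and at 224, 197 and 216 with STM2457 in the table labelled LN229, a rise of 1.21 (SE 0.23, adjusted p = 0.003 in limma). ZNF571 rose there by 0.91, ZNF813 by 0.85, ZNF432 by 0.75, ZNF765 by 0.72, ZNF383 by 0.71, ZNF808 by 0.66 and ZNF600 by 0.59. ZNF350 rose in the table labelled LN229-R from 149, 145 and 142 to 258, 335 and 283, by 0.99 (SE 0.17, adjusted p = 0.00291 in limma). ZNF701 rose there by 0.81, ZNF790 by 0.80, ZNF320 by 0.78, ZNF813 by 0.72, ZNF808 by 0.70, ZNF600 by 0.67, ZNF432 by 0.66 and ZNF613 by 0.65. ZNF432 thus passed in 3 of the 4 lines and, with the block, in U87-R.

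The falls were few, and 4 of them passed in both LN229 tables. ZNF528 fell by 0.94 (SE 0.09, adjusted p = 0.00012 in limma) in the table labelled LN229, from 1146, 1098 and 1102 to 601, 533 and 614. In that labelled LN229-R it fell by 1.02 (SE 0.17, adjusted p = 0.00251), from 1329, 1454 and 1183 to 521, 785 and 669. ZNF649 went from 277, 247 and 243 to 135, 131 and 141 in the first and from 428, 255 and 225 to 147, 136 and 130.0 in the second, where it fell by 0.91 and 1.07. ZNF841 fell by 0.65 and 0.81, and ZNF585A by 0.50 and 0.52. ZNF569 with -0.62 and ZNF382 with -0.48 passed in the table labelled LN229 and not in the other, a difference that did not itself pass.

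In U87 MG and U87-R the genes that fell most in the LN229 family did not pass. ZNF528 changed by -0.09 (SE 0.29) in U87 MG and -0.12 (SE 0.17) in U87-R, ZNF649 by 0.05 in both, and ZNF841 by -0.17 and 0.11. The difference between the families was not tested, since kit and medium differ with them.

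Both LN229 tables shared 13 members that rose, which were 65% of those that rose in the table labelled LN229 and 86.7% of those in that labelled LN229-R. Over all genes tested in both, the shares were 74.2% and 88.3%. The 4 shared falls were 66.7% and 100% of the members' falls, against 61% and 84.8% over all genes. With the replicate block in the table labelled LN229-R, 18 rises were shared, 90% and 85.7% of the members' rises, against 84.2% and 83.5% over all genes. Some calls of named members depended on 1 library. In the table labelled LN229 that of ZNF382 was lost without DMSO replicate 1 or 2 or STM2457 replicate 3, that of ZNF585A without DMSO replicate 1 or 3 or STM2457 replicate 1, that of ZNF570 without DMSO replicate 1 or 2, that of ZNF569 without DMSO replicate 1 and that of ZNF600 without DMSO replicate 3. Among the calls of the table labelled LN229-R, ZNF585A was lost without any 1 library but STM2457 replicate 3, ZNF613 without any but DMSO replicate 1, and ZNF432 without DMSO replicate 1 or 3 or STM2457 replicate 1 or 3.

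**Figure D4:**
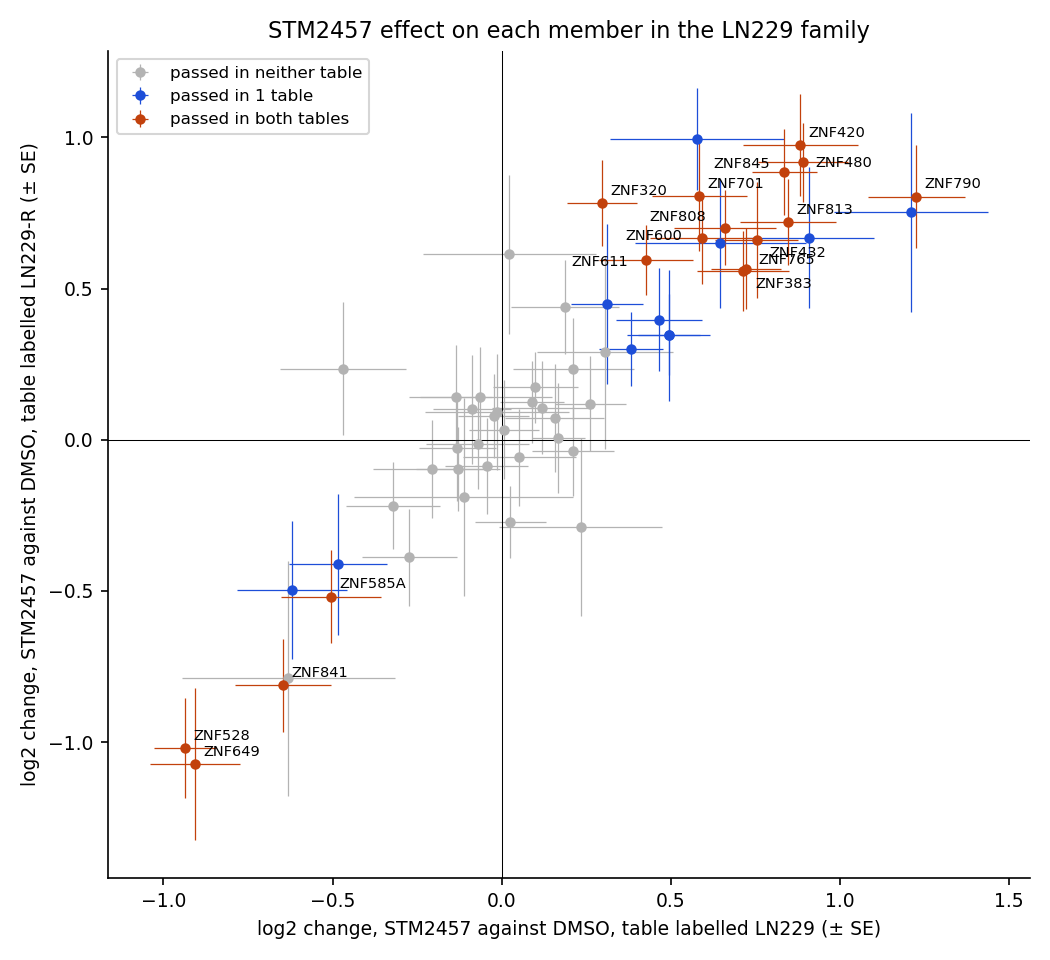
Log2 change (± SE of the fit) with STM2457 of each of the 58 tested members in the table labelled LN229 (x axis) and in that labelled LN229-R (y axis). Orange points passed in both tables in the same direction, blue points in 1, grey points in neither, and the shared 13 rises lie in the upper right with the 4 shared falls in the lower left.

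Of the leading genes ZNF570 passed in the LN229 family, with a rise of 0.47 (SE 0.13, adjusted p = 0.0158 in limma) in the table labelled LN229, from 248, 241 and 285 to 323, 381 and 366. In the table labelled LN229-R it was at 303, 275 and 333 against 385, 344 and 480.3, a change of 0.40 (SE 0.17, adjusted p = 0.0982 in limma), which passed with the replicate block (SE 0.12, adjusted p = 0.0347). ZNF83, ZNF229, ZNF415 and ZNF875 changed by -0.14 to 0.17 in the first table and by 0.01 to 0.17 in the second.

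Whether STM2457 acted differently in resistant and parental cells was tested in joint fits of 2 tables. In the U87 family 0 of 16 members differed with limma, where 0% of 15680 genes did, and 0 members had an unadjusted p under 0.05, against 586 of all genes. In the LN229 family 0 of 58 differed, where 0.00606% of 16511 genes did (1 gene), and 2 members (3.45%) had an unadjusted p under 0.05, against 651 of all genes (3.94%). The members' differences ran from -0.56 to 0.70 in the U87 family and from -0.52 to 0.70 in the LN229 family. An adjusted p above the threshold does not show that the effects were alike, and the name conflict of the LN229 family bears on its difference too.

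Genes of the KRAB silencing machinery and of DNA methylation, 29 in all, were followed as the partners of the members. In U87-R against U87 MG none of the 29 was higher or lower by the rule of no overlap and a log2 difference of 1. Over all genes 3.48% were higher and 2.02% lower by that rule. The median difference of the 29 was 0.06. TRIM28 was at 8312, 8611 and 9195 in U87 MG and at 8260.3, 8694 and 10886 in U87-R, with overlap. In the LN229 comparison in DMSO, 0 of the 29 rose and 1 fell (3.45%), against 5.6% and 3.65% of all genes. TET1, an enzyme that oxidises methylcytosine, fell by 0.66 (adjusted p = 0.0407 in limma) in libraries labelled LN229-R. With the names of the STM2457 tables its direction turns.

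With STM2457 partner genes passed in all 4 lines. In the table labelled LN229, 3 of 29 rose (10.3%) and 9 fell (31%), against 26.2% and 23.6% of all genes. In that labelled LN229-R 3 rose (10.3%) and 6 fell (20.7%), against 21.5% and 17.1% of all genes. TRIM28, the corepressor of KRAB proteins, fell by 0.89 (SE 0.08, adjusted p = 8.12e-05 in limma) in the first, from 8294, 8137 and 7970 to 4713, 4370 and 4107. It fell by 0.79 (SE 0.13, adjusted p = 0.00277) in the second, from 6989, 7290 and 8552 to 4288, 3949 and 4985. UHRF1, which guides the maintenance methyltransferase DNMT1, fell by 0.87, CBX5 by 0.82, DNMT3B by 0.76 in the first table. In the second TET1 fell by 0.68, HDAC2 by 0.51 and CBX3 by 0.51.

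MORC2, which compacts chromatin together with the HUSH complex, rose by 0.87 and 1.05, the methyltransferase DNMT3A by 0.62 and 0.56, and ZNF274, which brings SETDB1 to zinc finger gene clusters, by 0.53 and 0.72. In U87 MG 3 of the 29 rose (10.3%) and 1 fell (3.45%), where 7.86% and 5.72% of all genes did. There ZNF274 rose by 1.09, TASOR by 0.42 and MORC2 by 0.40 while HDAC1 fell by 0.36. In U87-R 2 rose (6.9%), SUV39H1 by 0.70 and DAXX by 0.60, and 0 fell, where 8.46% and 6.2% of all genes did. How the levels of these partners bear on the members was not tested.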

How the data were processed

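Polyadenylated RNA was measured in 24 libraries, 3 in each of 8 groups. Per the submitters' processing notes, reads were handled against GRCh38 (hg38) by programs listed as Salmon 1.4.0, DESeq2, Trimmomatic 0.39 and STAR 2.7.11a, whose order and settings are not given in the sources used here. The deposited signal values are normalized counts that the authors made, in 6 tables of 6 libraries, each normalized separately with factors that differ between genes. Whole reads could not be recovered, so no count model was used and depth is unknown.

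Within each table, log2(value + 1) of genes with a mean of at least 10 was fitted with limma 3.58.1 in R 4.3.3, with a trend of variance on mean, and p was adjusted by Benjamini and Hochberg over all genes of the table. A gene rose or fell where the adjusted p was under 0.05. Log2 changes on this scale understate those of low genes. Differences of STM2457 effects came from joint fits of 2 tables. U87-R against U87 MG in DMSO had chosen the members, so it was described, without a test, by groups that do not overlap and a log2 difference of at least 1. The fits were run on simulated data drawn from each table's own means and spreads, with independent noise for each library and few genes changed. That setting lacks the shared deviations of like-numbered libraries described below. Its outcome is not given here and lends no support to the calls. Where replicates are not separate cultures, p measures only the spread between these samples.

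The members and the lists were chosen with earlier results of these data known. The text names the 5 leading genes throughout, members by size of the U87 difference and 3 on each side of its limit, up to 12 passing members per direction and up to 4 partner genes per direction; a few more are named where a count of shared calls or a position needed them, after their values were seen. Members were joined on Ensembl identifiers, positions come from GENCODE 29 and promoters from RefSeq. Protein sequences were not used here, so alike genes were marked by shared 31-base words of GENCODE 29 transcripts.

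Like-numbered libraries deviated together, with every correlation above 0.1, in 3 comparisons: LN229-R against LN229 (0.114 to 0.204) and STM2457 in U87-R (0.114 to 0.298) and in LN229-R (0.102 to 0.321). The pairing comes from the data, not from the labels. Alternatives were pseudocounts of 0.5 and 5, no minimum mean and a minimum of 50, scaling of libraries to 1 total or 1 upper quartile, a fit without the trend, the replicate block, an adjusted p under 0.01, exchanged LN229 names and leaving out each library.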

Additional observations from a re-analysis of the deposited data

Results flagged for a closer look

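For 5 of the 46 members with a mean of at least 10 in both tables every U87-R library lay above every U87 MG library in DMSO while every library labelled LN229-R lay below every library labelled LN229. The same held for 282 of 13890 genes (2.03%), and as a share of the features higher in every U87-R library it was 12.5% for members and 16.3% for all genes. The difference between the families was not tested, and with the LN229 names of the STM2457 tables the 2 families would move the same way. ZNF83, at 241 to 380 in U87-R against 0 to 11.99 in U87 MG, changed by -0.36 in the LN229 family, where neither it nor the other 4 passed. ZNF382 had the same pattern with low U87 values, listed at 0 in U87 MG and at 7.50 to 29.3 in U87-R, and it passed in the LN229 family with -0.63 (limma, adjusted p = 0.0282). ZNF790, at 22.2 to 52.1 against 0 to 0.803, changed by -0.39. ZNF607, at 43.5 to 138 against 0 to 8.32, changed by -0.22. ZNF808, at 150 to 257 against 0.839 to 11.9, changed by -0.22. ZNF529, at 64.3 to 164 against 2.28 to 12.2, changed by -0.04, from 510 to 518 in libraries labelled LN229 to 495 to 504 in those labelled LN229-R.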

How the results depend on the processing

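The U87 count of 38 was 18 with a mean of at least 50, where fewer genes are measured, and the median of 4.29 was 2.79 with a pseudocount of 5, 2.49 with a mean of at least 50 and 3.96 without U87-R replicate 3. With an adjusted p under 0.01 the members called were 0 in LN229-R against LN229, 0 with STM2457 in U87 MG, 0 in U87-R, 16 in LN229 and 11 in LN229-R. Leaving out 1 library gave 0 to 1 in LN229-R against LN229, 0 to 1 in U87 MG and 0 to 1 in U87-R. Without a variance trend 0 were called in U87 MG. In U87-R 0 were called with no minimum mean, with a mean of at least 50, with equal upper quartiles and without a trend, 2 with equal totals and 4 with the replicate block. The cause was not tested. The replicate block gave 1, 1, 25 and 25 calls in LN229-R against LN229 and with STM2457 in U87 MG, LN229 and LN229-R. With the LN229 names exchanged the median change of 0.067 has the other sign. Values near 0 in U87 MG, at unknown depth, do not separate silence from low expression.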
